A study of Mus musculus with 6 samples.

Results

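The Hoxa cluster is a run of homeobox genes on mouse chromosome 6, and its transcripts were followed here in immortalized mouse embryonic fibroblasts (MEFs) with and without the mitochondrial protease YME1L. The 10 symbols Hoxa2, Hoxa3, Hoxa4, Hoxa5, Hoxa6, Hoxa7, Hoxa9, Hoxa10, Hoxa11 and Hoxa13 were taken by name from the table of fragment counts. They occupied 9 of its 51499 loci, because Hoxa2 and Hoxa3 were counted in 1 merged locus together with the predicted gene Gm28308. All 9 loci passed the filter on low counts that left 13867 loci for testing. The genes were chosen with their difference between the genotypes already known, so the values and calls of the 9 loci are a description. They are printed without p-values, the calls say only on which side of the threshold a locus fell, and nothing is drawn from them.

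RNA was collected from 3 independent cultures of WT cells and 3 of Yme1l-/- cells, both described in the labels as fibroblasts immortalized with SV40. Poly(A)-selected RNA was sequenced from both ends. The WT cells carry the unrecombined floxed alleles (Yme1l fl/fl), and the Yme1l-/- cells come from the same kind of floxed, SV40-immortalized cells after exposure to Cre recombinase. Cells of both genotypes had been expanded from individual clones after Cre transduction, so a difference between clones and a difference between genotypes cannot be told apart, and no treatment was applied to either group. How many clones the 3 cultures of a genotype represent is not given in the sources used here, and the p-values below measure the spread between these cultures only.

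Hox genes encode homeodomain transcription factors that give cells along the body axis and the limbs their positional identity. Within a cluster the genes lie in the order of the body regions they pattern, with genes at the 3' end acting towards the head and genes at the 5' end acting towards the tail and the tips of the limbs. Cultured fibroblasts keep a pattern of Hox expression that reflects the body site they came from, held in place by Polycomb and trithorax chromatin regulators.

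The libraries held 33180867 to 34012520 fragments in WT and 34624075 to 49351107 in Yme1l-/- cells. Levels are given as counts per 1000000 fragments on TMM-scaled library sizes (CPM), with the SD over 3 cultures. Yme1l1, the gene that was deleted, was counted with 6327, 6292 and 5968 fragments in WT and 1327, 1963 and 2067 fragments in Yme1l-/- libraries, a log2 fold change of -2.27 ± 0.05 (SE) that matched the labels in all 6 libraries. Over all tested loci, 67.7% were called by edgeR's quasi-likelihood test at an adjusted p under 0.05, 33.6% as higher and 34.1% as lower in Yme1l-/- cells.

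The members all lie on the minus strand, within the 98.5 kb from the 3' end of Hoxa2 to the annotated start of Hoxa13 (GRCm38, GENCODE M21). The annotated Hoxa3 gene encloses Hoxa4, Hoxa5 and Hoxa6 on the same strand, so the members are ordered by their 3' ends. Their differences between the genotypes varied along this order. From Hoxa2/Hoxa3 to Hoxa7, 3 loci were higher in Yme1l-/- cells and 2 were not called. From Hoxa9 to Hoxa13, all 4 loci were lower. Hoxa7, the last locus with a higher level, and Hoxa9, the first of the 4 lower ones, have their GENCODE start and 3' end 1245 bases apart, while the RefSeq start of Hoxa7 used below lies inside the GENCODE gene and farther from Hoxa9. Among the 3' loci Hoxa5 also had a negative value, which was not called. Of the 9 members, 7 were called, 3 higher and 4 lower, beside the 67.7% called in the whole table. At a fold change of at least 2, 4 members were lower, beside 8.63% of all tested loci, and 2 were higher, beside 9.1%. The median log2 fold change of the 9 loci was -0.22, beside -0.00 over all tested loci.

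Promoter windows of the neighbours Hoxa7 and Hoxa9, and of Hoxa11, the locus with the largest difference, are shown to place the transcripts on the genome. Each window runs from 250 bases before to 50 bases after the RefSeq start (GRCm38.p6, minus strand, 5' to 3'), at chr6:52218524-52218823 for Hoxa7, chr6:52227321-52227620 for Hoxa9 and chr6:52245761-52246060 for Hoxa11. CpG dinucleotides, the sites of DNA methylation, are in capitals.
Hoxa7: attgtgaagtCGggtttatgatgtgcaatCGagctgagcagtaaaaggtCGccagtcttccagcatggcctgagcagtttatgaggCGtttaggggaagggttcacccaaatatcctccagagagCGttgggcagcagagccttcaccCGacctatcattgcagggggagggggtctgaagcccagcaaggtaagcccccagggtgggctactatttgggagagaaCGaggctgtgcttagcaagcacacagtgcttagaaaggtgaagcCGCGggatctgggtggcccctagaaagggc
Hoxa9: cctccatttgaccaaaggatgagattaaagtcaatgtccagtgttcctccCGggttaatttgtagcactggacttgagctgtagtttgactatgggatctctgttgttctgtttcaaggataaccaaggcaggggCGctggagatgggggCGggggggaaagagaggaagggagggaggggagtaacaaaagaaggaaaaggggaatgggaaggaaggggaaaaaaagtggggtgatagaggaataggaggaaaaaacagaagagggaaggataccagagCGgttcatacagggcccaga
Hoxa11: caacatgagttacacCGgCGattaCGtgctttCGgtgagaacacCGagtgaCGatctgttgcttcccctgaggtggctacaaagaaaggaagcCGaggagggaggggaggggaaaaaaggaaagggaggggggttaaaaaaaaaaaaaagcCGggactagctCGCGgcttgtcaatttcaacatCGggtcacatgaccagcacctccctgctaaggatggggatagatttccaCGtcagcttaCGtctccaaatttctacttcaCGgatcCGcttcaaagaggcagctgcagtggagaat
These windows hold 9, 4 and 15 CpG dinucleotides, and the median over 32851 RefSeq windows of 300 bases was 7. RefSeq windows were matched for 9 of the 10 members (10 windows, with 2 for Hoxa10). Their CpG counts ran from 4 at Hoxa9 to 45 at Hoxa13, a count that 98.1% of all windows fell short of, and 9 of the 10 windows were above the median. The windows of Hoxa2, Hoxa3, Hoxa5 and Hoxa6 held 9, 20, 29 and 26 CpG, and the windows of Hoxa10 held 12 and 21. High and low counts occurred in both parts of the cluster, from 9 to 29 among the windows of Hoxa2 to Hoxa7 and from 4 to 45 among those of Hoxa9 to Hoxa13. Searched on both strands, the posterior HOX motif TTTATNG was in 0 of the 10 windows and in 10.9% of all windows. The homeodomain motif TAATTA was in 0 of the 10 windows and in 5.3% of all windows. The PBX-HOX motif TGATNNAT was in 1 window, that of Hoxa2, and in 8.8% of all windows.

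The 3' members had low levels, apart from Hoxa7. The merged locus of Hoxa2, which patterns the hindbrain and the second pharyngeal arch, and Hoxa3, which is needed for the thymus and parathyroid, had 2.51, 2.54 and 2.51 CPM in WT and 7.63, 7.71 and 8.50 CPM in Yme1l-/- cultures. The Yme1l-/- libraries all lay above the WT libraries, and the log2 fold change was 1.66 ± 0.11 (SE). The fragments of this locus cannot be divided between its genes. Hoxa4, a gene of cervical vertebral patterning, had 2.14, 1.5 and 1.62 CPM in WT and 3.54, 3.61 and 3.73 CPM in Yme1l-/- cultures. Again every Yme1l-/- library was above every WT library, with a log2 fold change of 1.05 ± 0.16 from 71, 49 and 53 fragments in WT.

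Hoxa5, which acts in lung and cervicothoracic development, had 3.14, 2.69 and 2.79 CPM in WT and 2.46, 2.32 and 2.61 CPM in Yme1l-/- cultures. The Yme1l-/- values lay just below the WT values without overlap, and the log2 fold change of -0.22 ± 0.14 was not called. Hoxa6 was the least counted of the 3' members, with 24 to 28 fragments per library in WT and 43 to 45 in Yme1l-/- cells. Its CPM values of 0.725, 0.855 and 0.858 in WT and 1.29, 0.853 and 0.883 in Yme1l-/- cultures overlapped, with the first Yme1l-/- culture clearly above the WT range and the other 2 at its upper end. The log2 fold change of Hoxa6 was 0.29 ± 0.24 and was not called.

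Hoxa7, a gene of thoracic axial patterning, was the most abundant of the 3' members. It had 13.9, 15.0 and 14.6 CPM in WT and 20.4, 19.1 and 19.3 CPM in Yme1l-/- cultures. The groups did not overlap, the log2 fold change was 0.43 ± 0.07, and it was 0.09 and not called once the median of each chromosome was subtracted. That median was 0.34 over the 697 tested loci of chromosome 6, so the increase of Hoxa7 was close to that of its chromosome. With the same subtraction Hoxa2/Hoxa3 and Hoxa4 were still higher, at 1.32 and 0.71, Hoxa6 stood at -0.05, and Hoxa5 was called lower at -0.56.

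The 5' members were lower in Yme1l-/- cells, and Hoxa9, Hoxa10 and Hoxa11 had the highest CPM of the members in WT. Hoxa9, which acts in haematopoietic progenitors and in the posterior body axis, had 30, 28.5 and 31.9 CPM in WT and 3.37, 3.99 and 3.26 CPM in Yme1l-/- cultures. The WT libraries counted 934 to 1042 fragments and the Yme1l-/- libraries 118 to 201. The groups were far apart, with a log2 fold change of -3.09 ± 0.09, which left 11.7% of the WT level. Hoxa10, a gene of lumbar and uterine patterning and the next gene in the cluster, fell less. Its levels were 30.9, 30 and 32.6 CPM in WT and 11.3, 12.3 and 11.9 CPM in Yme1l-/- cultures. Without overlap between the groups, 38.1% of the WT level was left (log2 fold change -1.39 ± 0.06).

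Hoxa11, which patterns the forearm and lower leg and the uterus, had the highest CPM of all members in WT and was near 0 in Yme1l-/- cells. It was counted with 1262, 1255 and 1275 fragments in WT and with 1, 0 and 2 fragments in Yme1l-/- libraries. In CPM this was 38.5 ± 0.484 in WT and 0.0226 ± 0.0203 in Yme1l-/- cells (SD, n = 3). From the summed counts, 3792 against 3 fragments, the level was 1750-fold lower, with a 95% exact (Clopper-Pearson) interval of 598 to 8490 that covers counting error only. Hoxa13, which patterns hands, feet and the genital tubercle, had 9.37, 8.28 and 11 CPM in WT and 0.0857, 0.535 and 0.530 CPM in Yme1l-/- cultures. It was counted with 271 to 359 fragments in WT and with 3, 27 and 27 fragments in Yme1l-/- libraries, where the first culture stood below the other 2. The groups did not overlap, and the log2 fold change was -4.53 ± 0.35 over all libraries and -4.15 ± 0.19 without the first Yme1l-/- culture.

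Hoxa13 also varied most between cultures of 1 genotype. The chi-square per degree of freedom of its counts, which is near 1 where cultures differ by counting error alone, was 6.41 in WT and 6.22 in Yme1l-/- cells. The medians over all tested loci were 2.33 and 2.72, and the other members lay between 0.00296 and 3.12 in both genotypes. In bulk RNA, fewer cells that express a gene and less RNA per cell cannot be told apart, so the remaining 4.02% of Hoxa13 may be a low level in many cells or a high level in few. Over the 9 loci, libraries of the genotypes did not overlap for 8, with Yme1l-/- above WT for 3 and below WT for 5. Among all tested loci the genotypes did not overlap for 71.9%, with 35.9% above and 36% below.

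**Figure D1:**
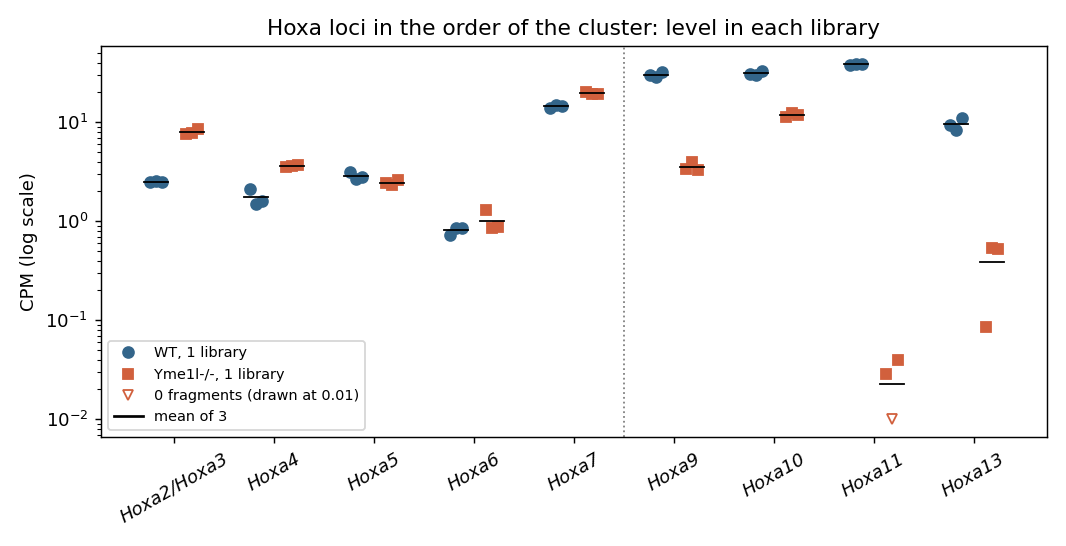
Level of each Hoxa locus in the 6 libraries, in CPM on a log axis, with loci in cluster order and a dotted line between Hoxa7 and Hoxa9. Circles are WT and squares Yme1l-/- libraries, the black bars are means of 3, and the open triangle is a library with 0 fragments drawn at 0.01. Left of the line the squares lie above the circles for Hoxa2/Hoxa3, Hoxa4 and Hoxa7, overlap them for Hoxa6 and lie just below them for Hoxa5. Right of it they lie below for all 4 loci, from 11.8 CPM at Hoxa10 to 0.0226 CPM at Hoxa11.

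Because longer transcripts give more fragments, levels of different members were compared per kilobase of annotated exon. In WT the order was Hoxa11 (16.8 ± 0.212 CPM per kb), Hoxa10 (9.52 ± 0.402), Hoxa9 (5.40 ± 0.304) and Hoxa7 (5.04 ± 0.198), followed by Hoxa13 (3.86 ± 0.553), Hoxa5 (1.53 ± 0.127), Hoxa4 (1.10 ± 0.216), Hoxa6 (0.930 ± 0.0868) and Hoxa2/Hoxa3 (0.323 ± 0.00193). The libraries of neighbours in this order overlapped for Hoxa9 and Hoxa7 and for Hoxa4 and Hoxa6, and for no other neighbours. In Yme1l-/- cells Hoxa7 came first at 6.82 ± 0.247 CPM per kb and Hoxa10 next at 3.62 ± 0.152. Hoxa4 (2.28 ± 0.0591), Hoxa5 (1.31 ± 0.0773), Hoxa6 (1.15 ± 0.277) and Hoxa2/Hoxa3 (1.02 ± 0.0615) followed, then Hoxa9 (0.634 ± 0.0702), Hoxa13 (0.155 ± 0.104) and Hoxa11 (0.00989 ± 0.00887). Here Hoxa6 overlapped with Hoxa5 above it and with Hoxa2/Hoxa3 below it.

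The order of the leading loci depends on the length used. The authors' FPKM, 1 combined value per genotype scaled to the assembled transcripts, put Hoxa9 first in WT at 21.1, ahead of Hoxa10 at 18.8 and Hoxa11 at 17.7. In the authors' FPKM of Yme1l-/- cells, Hoxa7 came first at 10.7 and Hoxa11 last at 0.0114, as they did per kilobase of annotated exon.

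The change altered the make-up of the cluster's output. Summed over the 9 loci, the level was 44.3, 43.3 and 46.1 CPM per kb in WT and 17.2, 16.8 and 17.0 CPM per kb in Yme1l-/- libraries. Hoxa9 to Hoxa13 supplied 79.7%, 79.4% and 80.7% of this sum in WT and 23.9%, 27.9% and 26.3% in Yme1l-/- libraries. The sum of Hoxa2 to Hoxa7 alone was 9, 8.90 and 8.88 CPM per kb in WT and 13.1, 12.1 and 12.5 CPM per kb in Yme1l-/- libraries. The total therefore fell while the 3' part of the cluster lay above its WT range. The chromosome 6 median log2 fold change of 0.34, which the increase of Hoxa7 was close to, is not subtracted from these sums. With the authors' FPKM the share of Hoxa9 to Hoxa13 was 82.3% in WT and 34.6% in Yme1l-/- cells.

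**Figure D2:**
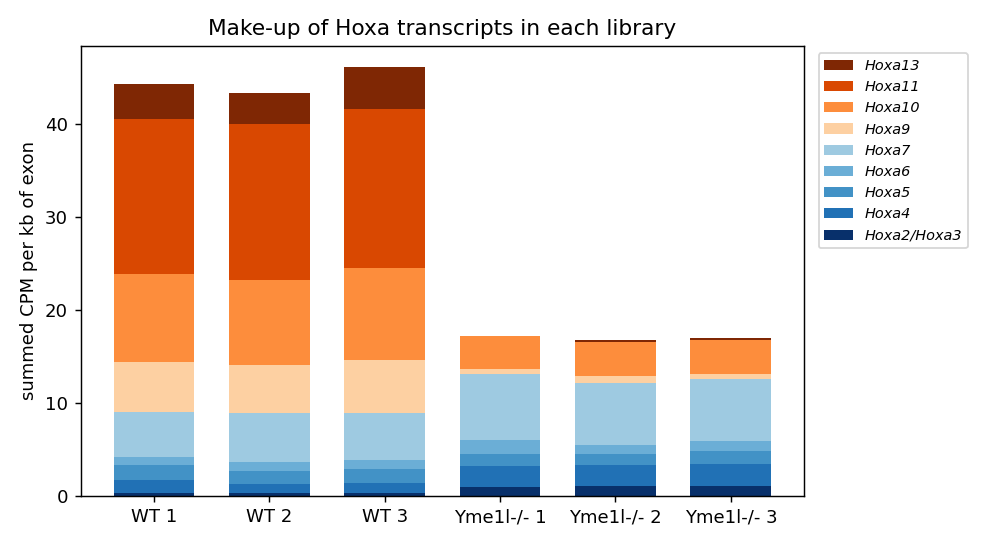
Stacked bars give the level of each Hoxa locus in each library, in CPM per kilobase of annotated exon, with Hoxa2 to Hoxa7 in blue and Hoxa9 to Hoxa13 in orange. The WT bars reach 43.3 to 46.1 and are mostly orange, and the Yme1l-/- bars reach 16.8 to 17.2 and are mostly blue.

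Other transcripts lie between and beside the members, among them several noncoding RNAs. Of the 5 noncoding companions tested, 1 was called higher, 2 lower and 2 neither, beside 67.7% called in the whole table. The 2 lower ones, Hoxa11os and Hottip, passed the filter on low counts through WT alone. Their calls were largely given by the filter and support nothing, so they carry no p-values below. The loci of Hotairm1, Hoxa11os and Hottip are merged with small predicted genes (Gm symbols), so their counts cannot be given to the named RNA alone. Hotairm1, a noncoding RNA at the 3' end of the cluster on the opposite strand, had 41, 38 and 34 fragments in WT and 83, 77 and 68 in Yme1l-/- libraries, with a log2 fold change of 0.58 ± 0.24 that missed the threshold (edgeR adjusted p = 0.0521). That call is not settled, since Hotairm1 passed the threshold under 5 of 13 alternative settings.

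Hoxaas2, an opposite-strand RNA between Hoxa2 and Hoxa3, rose from 10, 16 and 16 fragments to 67, 78 and 99, a log2 fold change of 2.07 ± 0.25 (edgeR adjusted p = 1.8e-05). Hoxaas3, which runs opposite to Hoxa4 through Hoxa7, had 6 to 15 fragments in WT and 22 to 25 in Yme1l-/- libraries, and its log2 fold change of 0.59 ± 0.38 was not called, with overlapping CPM values.

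At the other end of the cluster the opposite-strand RNAs, like the genes beside them, were lower in Yme1l-/- cells. Hoxa11os, a noncoding RNA that starts inside Hoxa11 and runs away from it, was counted with 733, 718 and 805 fragments in WT and 1, 2 and 1 in Yme1l-/- libraries. From the summed counts its level was 781-fold lower, with a 95% counting interval of 305 to 2868. Hottip, a noncoding RNA beyond the 5' end of Hoxa13, had 13, 13 and 15 fragments in WT and 0 in every Yme1l-/- library. This was at least 4.86-fold lower against a floor of 3 counts per library. Evx1, the homeobox gene beyond Hottip, and Halr1, a noncoding RNA beyond the 3' end of the cluster, were listed with 0 fragments in all 6 libraries.

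A pair of further transcripts inside the cluster, chosen by position after their values were seen, were tested. Gm15050, near Hoxaas3, had 9 to 19 fragments in WT and 24 to 37 in Yme1l-/- libraries and was not called (log2 fold change 0.74 ± 0.41). The transcript 9530018H14Rik, between Hoxa11 and Hoxa13, had 37, 33 and 37 fragments in WT and 4, 0 and 0 in Yme1l-/- libraries. It passed the filter on low counts through WT alone, so no p-value is given. From the summed counts it was 37.0-fold lower (95% counting interval 14.1 to 138), and all of its Yme1l-/- fragments came from the first culture, without which it was at 0.

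Exons on opposite strands overlap in this cluster. Of the 2287 exon bases of Hoxa11, 800 (35%) also lie in exons of Hoxa11os, and both RNAs were near 0 in Yme1l-/- libraries. The overlap was 25.4% of exon bases for Hoxa3, 16% for Hoxa4 and 20.4% for Hoxa7, and there was none for Hoxa2, Hoxa5, Hoxa6, Hoxa9, Hoxa10 and Hoxa13. The libraries were stranded, but whether the counting used strand is not given in the sources used here, so fragments from such exons may have been counted for either RNA.

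**Figure D3:**
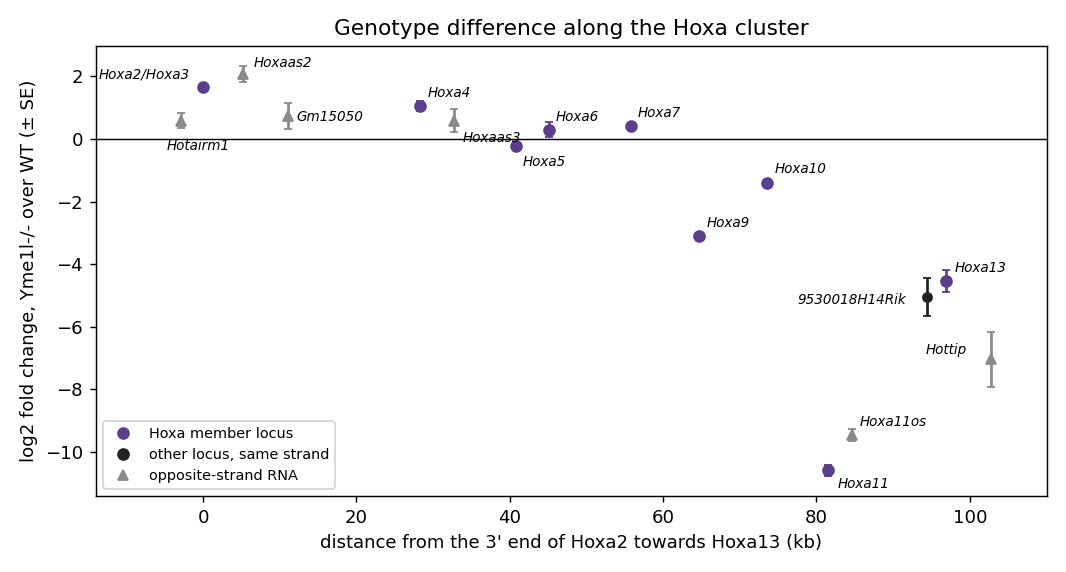
Log2 fold change (Yme1l-/- over WT, ± SE) of each tested locus against the distance of its midpoint from the 3' end of Hoxa2 in kb, with the merged Hoxa2/Hoxa3 locus drawn at that end. Purple circles are members, the black circle another locus of the same strand and grey triangles opposite-strand RNAs. Up to Hoxa7 the points lie between -0.22 (Hoxa5) and 2.07 (Hoxaas2), and from Hoxa9 on all lie below 0. For Hoxa11, Hoxa11os and Hottip the plotted values are fitted from 0 to 2 fragments per Yme1l-/- library and are not bounds.

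Outside the cluster most tested loci were higher in Yme1l-/- cells. Of the 10 tested loci on each side of it, 18 of 20 were called, 14 higher and 4 lower, with a median log2 fold change of 0.53 on the 3' side of the cluster and 0.72 on the 5' side. Chromosome 6 as a whole had 58.8% of its tested loci higher and 14.9% lower, and 7.6% lower by at least 2-fold. Skap2, an adaptor protein gene and the nearest tested locus on the 3' side, rose from 25.6 to 45.4 CPM (log2 fold change 0.83 ± 0.05, edgeR adjusted p = 1.2e-07). Hibadh, an enzyme of valine breakdown and the nearest on the 5' side, rose from 41.9 to 65.4 CPM (0.64 ± 0.06, edgeR adjusted p = 1.5e-06).

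Creb5, a transcription factor gene, was the only flanking locus that was lower by at least 2-fold, with 998 to 1136 fragments in WT and 494 to 829 in Yme1l-/- libraries (-1.07 ± 0.07, edgeR adjusted p = 2.5e-07). The flanking loci higher by at least 2-fold were Fam221a (1.93 ± 0.12), Gsdme (1.94 ± 0.08), Nfe2l3 (2.18 ± 0.30), Jazf1 (5.01 ± 0.36), Chn2 (1.65 ± 0.24), Scrn1 (2.59 ± 0.14) and Tril. Tril, which encodes a partner of Toll-like receptors, had 0 fragments in WT and 42, 81 and 96 in Yme1l-/- libraries, at least 17-fold higher. The value of Nfe2l3 was 2.79 without the second WT culture, which had 48 fragments where the other 2 had 18 and 19.

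**Figure D4:**
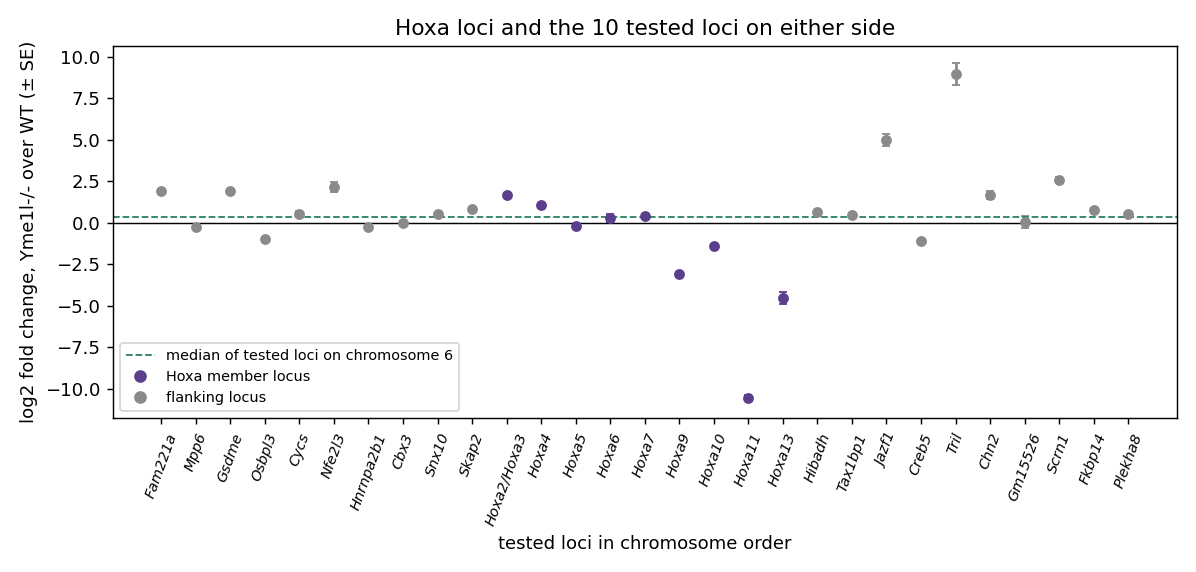
Log2 fold change (Yme1l-/- over WT, ± SE) of the 9 Hoxa loci in purple and the 10 tested loci on either side in grey, in chromosome order. The dashed line is the median of the tested loci on chromosome 6, 0.34, and Creb5 at -1.07 is the lowest flanking locus, above Hoxa9 to Hoxa13. The points of Hoxa11 and Tril are fitted against libraries at or near 0 and are not bounds.

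Hox genes have paralogues with the same number in up to 4 clusters, so the members were set beside theirs. Of 22 tested loci in the other clusters, 18 rose and 4 fell, beside 67.7% called in the whole table. Most of these loci passed the filter on low counts through the genotype in which they are high, so a call was largely given by the filter and the count supports nothing. With at least 10 counts in every sample 8 loci were left, 7 of Hoxb and Hoxd8, all higher, and no Hoxc locus and none of the 4 lower Hoxd loci could be tested. All 9 tested Hoxb loci and all 7 tested Hoxc loci rose, with median log2 fold changes of 4.07 and 6.07. Among the 6 tested Hoxd loci, 2 rose and 4 fell. The loci that fell were Hoxd9, the merged locus of Hoxd10 and Hoxd11, Hoxd12 and Hoxd13. As a description of levels only, the loci numbered 9 and above were lower in the Hoxa and the Hoxd cluster. Those of Hoxb and Hoxc with such numbers were higher, apart from Hoxc11, which was not tested. Hoxc10 is merged with Hoxc5, so its level cannot be given to that number alone.

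The largest increases among these loci were those of Hoxc13, Hoxc4 and Hoxc12. Hoxc13 went from 0.173 ± 0.0169 to 27.3 ± 3.33 CPM (7.28 ± 0.17) and Hoxc4 from 0.122 ± 0.0812 to 9.48 ± 0.195 CPM (6.25 ± 0.25). Hoxc12 had 2 fragments in all WT libraries together and 298 in the Yme1l-/- libraries (108-fold higher, 95% counting interval 29.5 to 893). Hoxd13 had 5500 to 5823 fragments in WT and 0 in every Yme1l-/- library, at least 2019-fold lower. Hoxd12 went from 203 to 222 fragments in WT to 0, at least 76.5-fold lower. The Hoxd10/Hoxd11 locus had 1523 fragments in all WT libraries together and 1 in the Yme1l-/- libraries. No p-values are given for these loci, which passed the filter on low counts through the genotype in which they are high.

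In paralogue group 9, most transcripts came from Hoxa9 in WT and from Hoxb9 in Yme1l-/- cells. Hoxa9 supplied 79.9%, 84.3% and 83.0% of the group's summed CPM per kb in WT and 1.93%, 2.35% and 1.98% in Yme1l-/- libraries. The sum itself was 6.74, 6.06 and 6.89 CPM per kb in WT and 31.4, 30.4 and 29.5 in Yme1l-/- libraries. Hoxb9 accounted for most of the increase, from 0.749 to 25.8 CPM per kb, with Hoxc9 at 0.0628 and 3.97. In groups 10 and 11 the sum fell, with the merged Hoxc10/Hoxc5 and Hoxd10/Hoxd11 loci counted whole. The sum of group 10 was 12, 11.8 and 12.7 CPM per kb in WT and 5.12, 5.63 and 5.39 in Yme1l-/- libraries, with 77.8% to 79% and 66.8% to 67.7% from Hoxa10. That of group 11 was 19.2, 19.4 and 19.9 CPM per kb in WT, of which Hoxa11 supplied 85.7% to 86.8%, and 0.111, 0.0818 and 0.114 in Yme1l-/- libraries. The shares in groups 10 and 11 depend on the length used. In WT the Hoxd10/Hoxd11 locus had 2.57 CPM per kb beside 9.52 for Hoxa10 and 16.8 for Hoxa11. The authors' FPKM for these loci were 12.1, 18.8 and 17.7. In Yme1l-/- cells their FPKM were 8.1 for Hoxa10 and 4.44 for Hoxc10/Hoxc5. Group 13 also fell, but Hoxa13 was a minor part of it in WT (5.06%, 4.53% and 6.14%) beside Hoxd13 at 69.7 CPM per kb. Its sum fell from 74.8, 73.9 and 72.4 to 17.7, 15.4 and 16.3 CPM per kb, and in Yme1l-/- cells it consisted mainly of Hoxc13 (11.1 CPM per kb) and Hoxb13 (5.24). Homeobox sequences are similar between paralogues, and the treatment of multiply mapping fragments is not given in the sources used here.

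**Figure D5:**
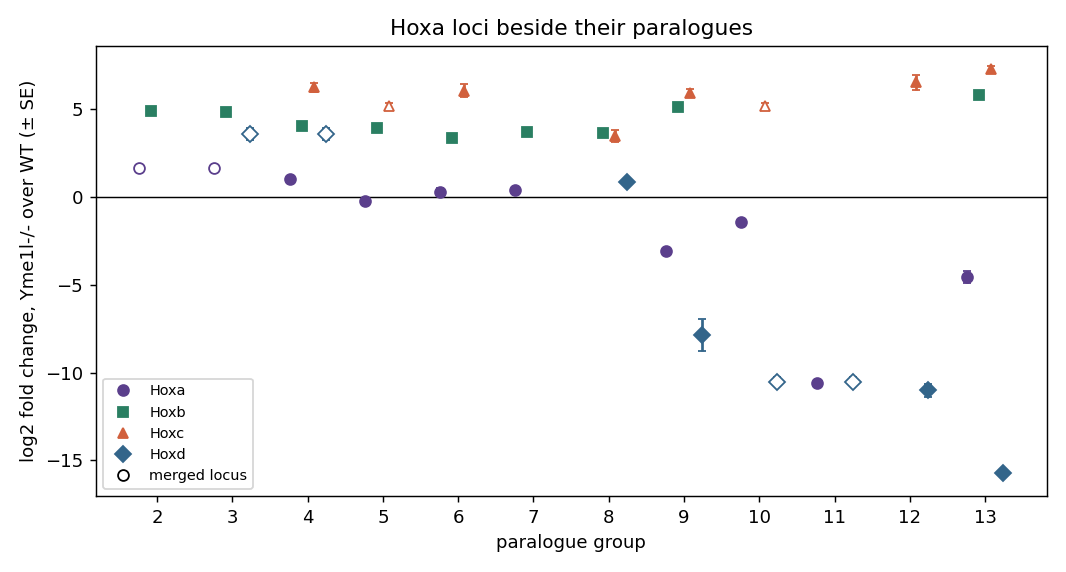
Log2 fold change (Yme1l-/- over WT, ± SE) of tested Hox loci by paralogue group, with Hoxa as circles, Hoxb as squares, Hoxc as triangles and Hoxd as diamonds. Open symbols are merged loci, drawn once for each gene they hold. The Hoxb and Hoxc points lie above 0 in every group, the Hoxa points lie above 0 up to group 7 except for Hoxa5 at -0.22 and below 0 from group 9 on, and the points of Hoxa11 and of the lower Hoxd loci are fitted from 0 to 2 fragments per Yme1l-/- library and are not bounds.

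HOX proteins bind DNA together with homeodomain cofactors of the TALE class, and 9 of these were tested. Of the 9, 6 rose, 1 fell and 2 were not called, beside 67.7% called in the whole table, and their median log2 fold change was 0.90. Meis1, a cofactor of posterior HOX proteins, rose from 3.82 ± 0.283 to 20.1 ± 1.64 CPM (2.40 ± 0.10, edgeR adjusted p = 3.2e-09). Its relatives Meis3 (1.34 ± 0.08, edgeR adjusted p = 1.1e-07) and Meis2 (1.28 ± 0.06, edgeR adjusted p = 4.8e-09) rose less.

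Genes of the 2 chromatin systems that hold Hox patterns changed in both directions. Of 31 Polycomb genes tested, which encode subunits of the repressive complexes, 14 rose, 10 fell and 7 were not called, a called share of 77.4% beside 67.7% in the whole table, and the median log2 fold change was 0.13. With chromosome medians subtracted the balance turned, to 9 higher and 13 lower. The chromobox genes Cbx7 (1.15 ± 0.08, edgeR adjusted p = 1.5e-07, and 0.56 with chromosome medians subtracted) and Cbx8 (1.10 ± 0.08, edgeR adjusted p = 5.2e-07) rose. Phc2, a polyhomeotic subunit, fell from 266 ± 17.3 to 135 ± 7.76 CPM (-0.98 ± 0.06, edgeR adjusted p = 6.7e-08). Pcgf3 (-0.54 ± 0.05, edgeR adjusted p = 1.4e-06) and Pcgf5 (-0.53 ± 0.05, edgeR adjusted p = 3.4e-06), ring-finger subunits of variant complexes, fell less.

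Of 13 tested trithorax and histone H3 lysine 27 demethylase genes, which oppose Polycomb, 2 rose, 6 fell and 5 were not called, a called share of 61.5% beside 67.7% in the whole table, with a median log2 fold change of -0.15. Kdm6a, a demethylase (-0.73 ± 0.06, edgeR adjusted p = 1.5e-06), Kmt2a, the trithorax homologue that maintains Hoxa expression (-0.67 ± 0.16, edgeR adjusted p = 0.0133), and Ash2l, a shared subunit of the methyltransferase complexes (-0.62 ± 0.04, edgeR adjusted p = 2.5e-07), fell. Kmt2d (0.70 ± 0.17, edgeR adjusted p = 0.0149) and Kdm6b (0.33 ± 0.04, edgeR adjusted p = 5.7e-05) rose. The call of Kmt2d was lost under 5 of the 13 alternatives, with chromosome medians subtracted (0.11, edgeR adjusted p = 0.623), with a replicate block (0.72, edgeR adjusted p = 0.0545) and without WT culture 1 (0.62, edgeR adjusted p = 0.0536), Yme1l-/- culture 1 (0.76, edgeR adjusted p = 0.0506) or Yme1l-/- culture 3 (0.69, edgeR adjusted p = 0.0501). The call of Kmt2a was lost without Yme1l-/- culture 1 (-0.56, edgeR adjusted p = 0.0535) and with chromosome medians subtracted, where Kdm6b stood at -0.03 and the list had 0 genes higher and 5 lower.

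Retinoic acid switches on 3' Hox genes in the embryo, and the caudal-type (Cdx) factors act on Hox genes of the trunk. Of 21 genes of these systems, 13 were tested, all of them retinoic acid genes, since the Cdx genes had 0 or 1 fragment per library. Of the 13, 4 rose, 8 fell and 1 was not called, beside 33.6% higher and 34.1% lower in the whole table, with a median log2 fold change of -1.0. Crabp1, a carrier of retinoic acid, fell from 87.5 ± 9.35 to 10.4 ± 0.612 CPM (-3.07 ± 0.08, edgeR adjusted p = 1.5e-10). Rdh10, which makes retinaldehyde from retinol (-1.94 ± 0.09, edgeR adjusted p = 8.4e-09), and Rarb, a receptor (-1.92 ± 0.24, edgeR adjusted p = 2.6e-05), fell too. Dhrs3, which turns retinaldehyde back into retinol, had 3, 6 and 4 fragments in WT and 30, 59 and 78 in Yme1l-/- libraries (3.16 ± 0.37). It passed the filter on low counts through Yme1l-/- cells alone. Rarg, a receptor (0.60 ± 0.05, edgeR adjusted p = 5e-07), rose, and stood at 0.00 once chromosome medians were subtracted. With at least 10 counts in every sample, 10 loci of this list were tested, 3 called higher and 6 lower.

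Hoxa10 had the highest mean CPM over the 6 libraries of the members, and loci were ranked by how closely their centred log2 CPM over these libraries followed it. Among 9081 loci outside the Hox clusters, the closest were Bgn, which encodes the matrix proteoglycan biglycan, with a root mean square difference of 0.0133 on the log2 scale, Cgnl1 (0.0254), Mfhas1 (0.0287), Camk2d (0.0292) and Arhgef40 (0.0302). Bgn went from 2281 to 896 CPM, and the log2 fold changes of the 5 loci lay between -1.38 and -1.35. They lie on chromosomes X, 9, 8, 3 and 14, none on chromosome 6. With 6 libraries in 2 groups, this likeness rests mainly on an equal difference between the genotypes.

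The cells were checked against markers of the labelled type. Of 10 tested fibroblast markers, 8 fell and 1 rose, beside 34.1% lower and 33.6% higher in the whole table. The second WT culture stood apart for Col3a1 (86.3, 301 and 91.1 CPM in WT) and Dcn (1.57, 7.85 and 1.56 CPM), whose log2 fold changes of -2.48 and -2.70 were -1.63 and -1.47 without it, with 8 markers still lower. Without any 1 Yme1l-/- culture, neither was called and 6 markers were lower. The summed level of the 12 fibroblast markers was 11332 to 11914 CPM in WT and 6974 to 7455 CPM in Yme1l-/- libraries. Col1a1, a collagen chain, had 1616 CPM in WT and 2177 CPM in Yme1l-/- cells, Vim had 2605 and 1039 CPM, and Thy1 and Lum were under 1 CPM throughout. The 7 epithelial markers summed to 33.2 to 35.1 CPM in WT and 0.373 to 0.686 CPM in Yme1l-/- libraries. Nearly all of this was Krt18, with 1012 to 1086 fragments in WT and 0, 1 and 3 in Yme1l-/- libraries. Epcam went from 1.29 to 0.0848 CPM (-3.83 ± 0.33), and like Krt18 it passed the filter on low counts through WT alone. Cdh1, Krt5, Krt14, Krt8 and Cldn4 were under 1 CPM in every library. Blood and endothelial markers summed to 2.79 to 3.12 CPM in WT and 5.54 to 5.91 CPM in Yme1l-/- libraries, and both tested ones rose, Cd68 from 1.77 to 3.62 CPM (1.04 ± 0.14, edgeR adjusted p = 4.8e-05) and Kdr from 0.995 to 1.64 CPM (0.72 ± 0.22, edgeR adjusted p = 0.0132). Ptprc, which defines blood cells, was at 0.0203 and 0.0132 CPM, and Pecam1 and Cdh5 of endothelium were under 1 CPM in every library. The 6 neural and muscle markers found summed to 0.490 to 0.604 CPM in WT and 2.26 to 3.26 CPM in Yme1l-/- libraries, where Des had 2.65 CPM. These marker levels moved with the same contrast as the Hoxa loci, and their part in the Hoxa values was not tested.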

How the data were processed

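Total RNA of 6 cultures was poly(A)-selected and sequenced as stranded paired-end libraries. According to the submitters' processing notes and the study's methods, the authors used HISAT2 2.0.4, StringTie 1.3.3 and Cuffdiff 2.2.1 on GRCm38. The authors deposited raw fragment counts per assembled locus, without normalization, in which overlapping genes share a locus, and FPKM as 1 combined value per genotype. The authors' columns of fold changes, p-values and q-values were not used. Handling of multiply mapping fragments and use of strand in counting are not given in the sources used here.

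The genotypes were compared with edgeR 4.0.16 in R 4.3.3 (TMM, filterByExpr with minimum count 10, robust glmQLFit, two-sided glmQLFTest, Benjamini-Hochberg over 13867 loci). Standard errors were the log2 fold change divided by the root of the F statistic. Counts were also tested with DESeq2 1.42.0. CPM were divided by exon length from GENCODE M21, whose coordinates are used. The pooled count ratios are given for loci with few fragments in 1 genotype.

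Members and lists were chosen with earlier results of these data known. Named genes were all members and companions, up to 3 per list and direction with the largest called log2 fold change and at least 1 CPM in the higher genotype, the nearest flanking loci, those at least 2-fold changed among 10 per side, and the 5 loci most like the most abundant member among those with a mean of at least 10 CPM. Some genes that this rule names are not reported here. Same-numbered cultures of the genotypes did not deviate together (correlations of 0.198, -0.158 and 0.048). Alternatives were RLE and upper-quartile scaling, DESeq2, no filter or at least 10 counts in every sample, a replicate block, chromosome medians subtracted, and each culture left out.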

Additional observations from a re-analysis of the deposited data

How the results depend on the processing

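Of the 9 Hoxa loci, 7 were called under every alternative except at least 10 counts in every sample, which left 7 loci to test and removed Hoxa11 and Hoxa13, with 5 called. With chromosome medians subtracted the count was also 7, but Hoxa7 was no longer called and Hoxa5 was called lower. Over the 13 alternatives, or the 12 in which a locus was tested, the log2 fold change ranged from 1.32 to 1.72 for Hoxa2/Hoxa3, 0.71 to 1.21 for Hoxa4, -0.56 to -0.15 for Hoxa5, -0.05 to 0.40 for Hoxa6, 0.09 to 0.49 for Hoxa7, -3.43 to -3.02 for Hoxa9, -1.73 to -1.33 for Hoxa10, -11.31 to -9.97 for Hoxa11 and -4.87 to -4.15 for Hoxa13. The fitted value of Hoxa11, -10.58 with all libraries, was -9.97 without the second Yme1l-/- culture, which had 0 fragments, and -11.31 without the third, which had 2. With at least 10 counts in every sample, 8 loci of the other Hox clusters were tested, all called higher, in place of 22, and the Hoxc and lower Hoxd loci dropped out. With chromosome medians subtracted, 5 trithorax and demethylase genes were called in place of 8, and Kdm6b went from 0.33 to -0.03. Upper-quartile scaling moved the median of all loci to 0.055, and the calls over the whole table then numbered 5168 higher and 4204 lower.

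The culture numbers did not pair the samples. With the replicate block, 9794 loci were called in place of 9387, and the members kept 7 calls, 3 higher and 4 lower. Leaving out 1 culture at a time gave 7 member calls in all 6 fits. Over the whole table the alternatives gave 8513 to 10051 calls. Hoxa6 and the opposite-strand RNAs other than Hoxa11os rest on under 100 fragments per library, which limits the differences that could be seen there.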
